A study of Oryctolagus cuniculus with 20 samples.

Results

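The genes described here are 10 genes of the skeletal muscle fibre, followed across the condylar cartilage of rabbit jaw joints: TNNC2, ACTA1 and NEB of the thin filament, TTN, the myosin light chains MYL1 and MYL11, ATP2A1 and CASQ2 of the calcium store, CKM and ANKRD1. A probe was taken for a member when the array's gene name, its description or the accession behind it named 1 of these 10 genes, which gave 42 of the 43603 probes and 10 of the 845 genes that could be named. The symbol itself stood in the files for 8 probes of 4 genes (TNNC2, MYL1, CKM and ANKRD1). The other 34 probes, of 6 genes, were named through their RefSeq accession, LOC number, description or Ensembl transcript. Of the 42 probes, 30 were tested, having been marked well above background by the scanner software on 3 or 4 arrays of some group. Each gene stands by its tested probe of highest mean.

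The series followed internal derangement of the temporomandibular joint, a displacement of the disc that lies between jaw and skull, in male rabbits 6 months old. The 20 single-colour Agilent arrays each held total RNA of the condylar cartilage, the tissue that caps the jaw's articular head. Control rabbits (4 arrays) had no treatment, and no sham procedure is named in the labels; left joints with derangement were sampled after 1, 2, 4 or 8 weeks (4 arrays each). The design text puts the groups in separate rabbits, so all 20 arrays are separate animals as far as that text goes. The p-values rest on the spread between them, taken per probe as 1 value for all groups. How derangement was induced is not stated in the labels.

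In striated muscle, calcium released from the sarcoplasmic reticulum binds troponin C on the thin filament and lets myosin heads pull on actin; the calcium pump then returns it to the store. Titin spans the sarcomere as a molecular spring, nebulin runs along the thin filament, and the light chains sit on the neck of myosin. Cartilage cells have no sarcomeres, and in the intact jaw the lateral pterygoid muscle inserts beside the condyle. In bulk RNA, fewer cells of a type and less RNA per cell cannot be told apart.

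All 10 genes had their highest group mean in the control. At 1 week after derangement 7 of the 10 were called lower than control (limma, Benjamini-Hochberg adjusted p under 0.05), beside 4.21% of the 26905 tested probes called lower. At 2 weeks 5 of 10 were called lower, beside 0.212% of all probes, and at 4 weeks 10 of 10, beside 2.19%. At 8 weeks 10 of 10 were called lower, beside 4.3%. ATP2A1, CASQ2, NEB and ANKRD1 reached the filter through the control arrays alone, so a difference was built in and their calls are no independent support. These genes make up 3, 3, 4 and 4 of these counts, and the other 6 genes make up 4, 2, 6 and 6. None was called higher at any time, where 9.71%, 0.242%, 6.38% and 8.46% of all probes were. All 4 arrays lay below all 4 control arrays for 7, 7, 9 and 10 genes at these times, beside 5.57%, 1.46%, 5.86% and 8.76% of probes. These counts include ATP2A1, CASQ2 and NEB at all 4 times and ANKRD1 at 2, 4 and 8 weeks. For these genes the filter built in part of the separation, which is no independent support either. The median fitted change of the 10 genes was -3.66, -4.31, -4.78 and -4.76 at 1, 2, 4 and 8 weeks on the log2 scale, where the median of all tested probes was 0.02, 0.04, 0.03 and 0.04. With genes that were below background throughout a later group set to their lower bound, the medians were -3.20, -3.56, -4.06 and -4.20. The 4 comparisons share the same 4 control arrays.

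Those control arrays differed widely among themselves, and the size of every change depends on them. Control 2 was the highest of the 20 arrays for 10 of 10 genes and control 1 the second highest for 10 of 10. Without these 2 arrays, a check added after the data were seen, 5, 4, 7 and 7 genes were called lower at 1, 2, 4 and 8 weeks. With normexp background correction the counts were 0, 0, 1 and 1, and with only the 8 arrays of each comparison in the fit they were 0, 0, 4 and 4. The fit over 20 arrays shares 1 spread per probe over the 5 groups. The narrower later groups therefore lower the SE of the comparisons with control. For TNNC2 at 2 weeks the SE was 1.06 in that fit and 1.5 with the 8 arrays. For 2 weeks against control those 8 arrays are also 1 scan day, and TNNC2 had a limma adjusted p of 0.263 there. Each group lay on its own slide, so slide and group cannot be told apart.

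**Figure D1:**
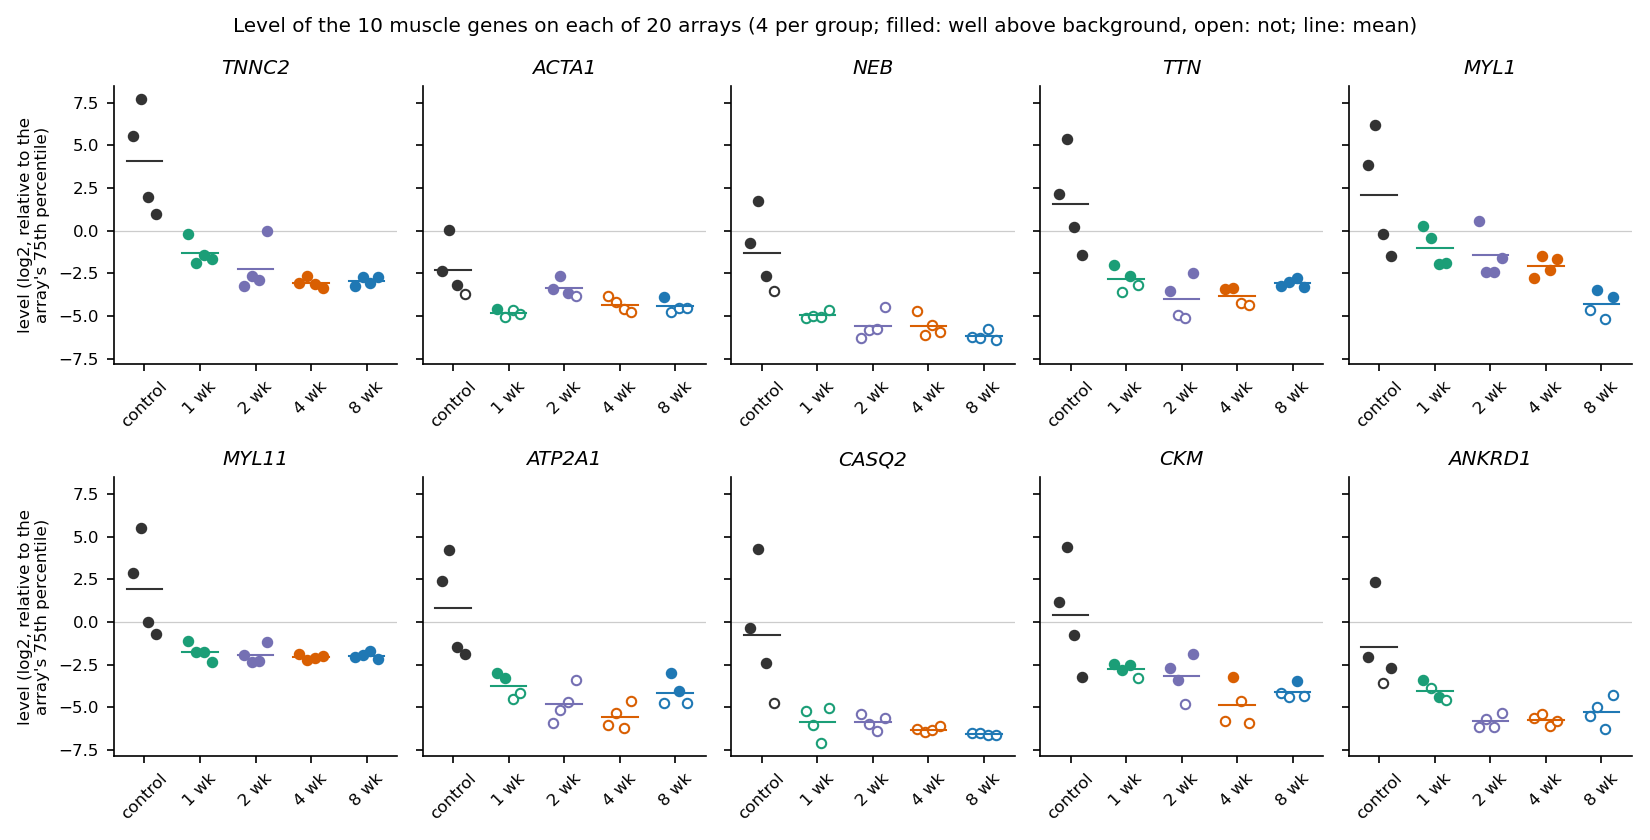
Level of each of the 10 genes on the 20 arrays, as log2 of the processed signal relative to the array's 75th percentile; each dot is 1 array, the line is the mean of 4, and an open dot was not well above background. Control arrays spread widely, with control 2 the highest array in all 10 panels. For TNNC2, MYL11, ATP2A1, CASQ2, TTN and NEB all 16 arrays after derangement lie below the lowest control. The share of all tested probes that do so was not counted, and ATP2A1, CASQ2 and NEB passed the filter through the control alone.

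Levels below are log2 values of the scanner's processed signal relative to the 75th percentile of the same array, so 0 is a probe as bright as that percentile. A probe's level cannot be set against another probe's, and each is compared only with itself. Between 49.1% and 66.4% of the spots on an array were well above background, none was saturated, and the number of arrays limits the precision. Control and 2-week arrays were scanned on 1 day, and the 1-, 4- and 8-week arrays on another.

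TNNC2 encodes the calcium-binding troponin C of fast fibres. Its only probe reads the end of the coding sequence in the sense of the messenger RNA, shown here because its 4- and 8-week calls held in every setting run; the capitals mark the stop codon of its 1 open frame.
TNNC2: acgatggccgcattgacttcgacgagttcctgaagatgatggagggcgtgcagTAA
The probe was well above background on all 20 arrays. Its level was 5.57, 7.74, 1.98 and 0.97 on control arrays 1 to 4, which as processed signal is 23096, 81340, 1262 and 657 units. After 1 week it was -0.22, -1.92, -1.43 and -1.66, and after 2 weeks -3.26, -2.68, -2.90 and -0.05. These 8 arrays all lie below the lowest control array. The level was -3.07, -2.64, -3.11 and -3.36 after 4 weeks, and -3.22, -2.72, -3.05 and -2.71 after 8 weeks. All 16 arrays after derangement were below every control, the nearest being 2-week array 4.

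The TNNC2 change against control was -5.37 ± 1.06 (SE, 4 arrays a group) at 1 week, with a limma adjusted p of 0.0022. It was -6.29 ± 1.06 at 2 weeks (limma adjusted p = 0.0129), -7.11 ± 1.06 at 4 weeks (0.000322) and -6.99 ± 1.06 at 8 weeks (0.000321). Taken from the fit, these are falls of 41.4-, 78.2-, 138- and 127-fold. Leaving out 1 control array moved the 4-week change between -8.14 (without control 4) and -5.89 (without control 2). With controls 1 and 2 both left out it was -2.78, -3.70, -4.52 and -4.40 at the 4 times, and all 4 calls remained (limma adjusted p = 0.0234, 0.0399, 0.0013 and 0.0015). The 2-week call was lost without control 1 (limma adjusted p = 0.0575) and without 2-week array 2 (0.0513). TNNC2 was the gene that stayed called with normexp correction at 4 and 8 weeks (limma adjusted p = 0.0218 and 0.0138), while at 1 week it was -4.74 there with an adjusted p of 0.0515.

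ACTA1 encodes the alpha actin of the skeletal thin filament. Its only probe comes from an expressed sequence tag. Actin genes are near-identical, so which of them this probe reads, and on which strand, is uncertain. The ACTA1 probe was well above background on 3, 1, 3, 0 and 1 of 4 arrays in control and at 1, 2, 4 and 8 weeks. Its level was -2.37, 0.01, -3.20 and -3.69 on the control arrays and -4.60, -5.09, -4.64 and -4.91 after 1 week. After 2 weeks it was -3.41, -2.65, -3.64 and -3.83, within the range of controls 1 to 4 but for 1 array. At 4 weeks it was -3.86, -4.16, -4.59 and -4.79, and after 8 weeks -3.87, -4.76, -4.51 and -4.51. The 1-, 4- and 8-week arrays all lie below the lowest control, control 4, which was itself not above background.

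The ACTA1 change was -2.50 ± 0.54 (SE, limma adjusted p = 0.00493) at 1 week and -2.10 ± 0.54 (limma adjusted p = 0.0169) at 8 weeks. At 2 weeks it was -1.07 ± 0.54 and missed the threshold (limma adjusted p = 0.691); without controls 1 and 2 that value was 0.06. At 4 weeks no array was above background, and control was at least 3.13-fold higher (limma adjusted p = 0.0271). This bound, like those given for other genes, holds for the processed signal as scaled here; under normexp background correction the 4-week change was -1.35 and not called. The 4-week call was also lost without control 1, without 4-week arrays 2, 3 or 4 in turn (limma adjusted p up to 0.0837) and without controls 1 and 2 (limma adjusted p = 0.191). The 8-week change was -0.97 and no longer called without those 2 arrays (limma adjusted p = 0.138). Without control 2 alone it was -1.32, and without control 4 it was -2.56.

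NEB encodes nebulin, the long protein that runs along the thin filament. Its 6 probes fall in 2 sites: 5 overlapping probes that share 56 bases, set in capitals in the first and the last of them, and 1 elsewhere that passed no filter. They are shown because the 5 are near-copies and count as 1 measurement.
NEB first: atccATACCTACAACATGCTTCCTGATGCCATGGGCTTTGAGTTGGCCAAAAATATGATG
NEB last: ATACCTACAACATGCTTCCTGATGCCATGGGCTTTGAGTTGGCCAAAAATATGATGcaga
NEB other: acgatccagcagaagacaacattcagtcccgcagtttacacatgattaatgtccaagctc
The first of these, the brightest, was at -0.72, 1.75, -2.69 and -3.56 on the control arrays, the last of which was not above background. At 1 week it was at -5.10, -5.03, -5.08 and -4.63, and after 2 weeks at -6.30, -5.82, -5.78 and -4.47. At 4 weeks it was at -4.69, -6.15, -5.51 and -5.96, and after 8 weeks at -6.21, -6.27, -5.74 and -6.44. None of these 16 arrays was above background and all lie below the lowest control, so NEB passed the filter through the control alone. Control was at least 6.54-, 5.56-, 6.40- and 7.59-fold higher than 1, 2, 4 and 8 weeks (limma adjusted p = 0.0038, 0.0175, 0.00174 and 0.00047). Under normexp background correction the NEB changes were -1.77, -1.54, -2.30 and -2.30 on the log2 scale, smaller than these bounds and not called. Leaving out controls 1 and 2 gave bounds of 1.85, 1.58, 1.81 and 2.15 with all 4 calls kept (limma adjusted p = 0.024, 0.0399, 0.00573 and 0.00105). The 2-week call was lost without control 1 (limma adjusted p = 0.0759), 2-week array 2 (0.0682) or 2-week array 3 (0.0656). Of the 5 overlapping probes, 3, 2, 3 and 5 were called lower at 1, 2, 4 and 8 weeks. The probe elsewhere was at -0.76, 1.80, -4.50 and -5.56 on the control arrays and below background on the 16 others.

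TTN encodes titin, the molecular spring from Z-disc to M-line. Of its 13 probes, at 10 sites, 7 were tested; the brightest probe and a probe at another site are shown as the reading of 2 separate stretches of this very long transcript.
TTN: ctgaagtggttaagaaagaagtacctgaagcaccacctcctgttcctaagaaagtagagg
TTN other site: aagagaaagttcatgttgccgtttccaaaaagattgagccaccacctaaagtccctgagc
The brightest TTN probe was at 2.16, 5.39, 0.19 and -1.44 on the control arrays, all above background. After 1 week it was at -1.99, -3.60, -2.65 and -3.16, and after 2 weeks at -3.57, -4.96, -5.14 and -2.47, with 2 of 4 arrays above background in each. After 4 weeks it was at -3.45, -3.37, -4.23 and -4.39 with 2 of 4 above background, and after 8 weeks at -3.24, -3.02, -2.76 and -3.33 with all 4. All 16 arrays after derangement lie below the lowest control, and the 8-week arrays lie above all 4-week arrays.

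The TTN change was -4.43 ± 0.98 at 1 week, -5.61 ± 0.98 at 2 weeks, -5.43 ± 0.98 at 4 weeks and -4.66 ± 0.98 at 8 weeks (SE, limma adjusted p = 0.00572, 0.0154, 0.00179 and 0.00472). Among the 7 tested probes, 6, 3, 6 and 7 were called lower at these times, with fitted changes from -5.61 to -2.32. Leaving out controls 1 and 2 gave changes of -2.23, -3.41, -3.24 and -2.46, and the 1-week call was lost (limma adjusted p = 0.0616). The 2-week call was lost without control 1 (limma adjusted p = 0.0676), 2-week array 2 (0.0681) or 2-week array 3 (0.0662).

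MYL1 encodes the alkali light chain of fast myosin, and MYL11, long known as MYLPF, the regulatory light chain. Each has 1 probe, in an open reading frame, shown as the only probes of the light chains here.
MYL1: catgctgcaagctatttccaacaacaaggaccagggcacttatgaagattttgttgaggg
MYL11: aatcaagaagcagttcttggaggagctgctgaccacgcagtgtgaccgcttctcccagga
MYL1 was at 3.83, 6.21, -0.20 and -1.50 on the control arrays, 0.25, -0.46, -1.97 and -1.92 after 1 week, and 0.59, -2.40, -2.41 and -1.60 after 2 weeks. At 4 weeks MYL1 was at -2.78, -1.48, -2.29 and -1.69, and after 8 weeks at -4.67, -3.49, -5.21 and -3.92, where 2 of 4 arrays were above background. The first 3 of these later groups overlap the control range, while the 8-week arrays lie below all 16 others. The MYL1 change was -3.11 ± 1.21 at 1 week and -3.54 ± 1.21 at 2 weeks, neither called (limma adjusted p = 0.0968 and 0.369). At 4 weeks it was -4.15 ± 1.21 (limma adjusted p = 0.042), a call lost in 10 of the 20 settings that left out 1 array, among them each 4-week and each 8-week array, control 1 (limma adjusted p = 0.131) and control 2 (a change of -2.78, limma adjusted p = 0.128). At 8 weeks it was -6.41 ± 1.21 (limma adjusted p = 0.00215), and -3.47 without controls 1 and 2 (limma adjusted p = 0.0261).

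MYL11 was above background on all 20 arrays. It was at 2.87, 5.51, 0.03 and -0.71 on the control arrays, -1.10, -1.73, -1.75 and -2.35 after 1 week, and -1.93, -2.32, -2.27 and -1.14 after 2 weeks. It was at -1.87, -2.23, -2.10 and -1.98 after 4 weeks and -2.05, -1.95, -1.70 and -2.17 after 8 weeks. All 16 lie below the lowest control, and the 8 arrays of the last 2 groups lie within 1 unit of each other. The MYL11 change was -3.66 ± 0.87 at 1 week, -3.97 ± 0.87 at 4 weeks and -3.89 ± 0.87 at 8 weeks (SE, limma adjusted p = 0.00959, 0.00824 and 0.00724). At 2 weeks it was -3.84 ± 0.87 (limma adjusted p = 0.07), and it was called without control 3 (limma adjusted p = 0.0343) or control 4 (0.0069). Without controls 1 and 2 the changes were -1.39, -1.58, -1.71 and -1.63, called at 1, 4 and 8 weeks (limma adjusted p = 0.022, 0.00962 and 0.0112).

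ATP2A1 encodes the calcium pump of the fast-fibre sarcoplasmic reticulum. Its 10 probes carry the name of a related pump in the array's own annotation, and RefSeq places their accession at ATP2A1. They hold 6 distinct sequences at 2 sites: 9 tested probes at the end of the transcript, and 1 in the coding sequence that passed no filter and is shown as the site away from that end.
ATP2A1 coding: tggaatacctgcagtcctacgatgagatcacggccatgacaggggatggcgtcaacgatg
The brightest ATP2A1 probe was at 2.42, 4.21, -1.47 and -1.88 on the control arrays, all above background. At 1 week it was at -2.98, -3.29, -4.50 and -4.14, 2 of them above background, and after 2 weeks at -5.92, -5.16, -4.68 and -3.41, none above. At 4 weeks it was at -6.04, -5.35, -6.18 and -4.65, none above, and after 8 weeks at -4.77, -2.98, -4.01 and -4.76, 2 above. All 16 arrays lie below the lowest control.

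The ATP2A1 change was -4.55 ± 1.01 at 1 week and -4.95 ± 1.01 at 8 weeks (SE, limma adjusted p = 0.00579 and 0.00382). Control was at least 24.3-fold higher than 2 weeks and at least 27.9-fold higher than 4 weeks (limma adjusted p = 0.0177 and 0.000571); without controls 1 and 2 these bounds were 4.31 and 4.96. Under normexp background correction the changes at 2 and 4 weeks were -3.08 and -3.90, smaller than the bounds and not called. All 9 tested probes were called lower at all 4 times, but they share their sequence and are not 9 measurements. Pairs of spots with the same sequence differed by a median of 0.06 on control arrays and 0.43 on the others. The call was lost without controls 1 and 2 at 1 week (-2.05, limma adjusted p = 0.0876), at 2 weeks (adjusted p = 0.083) and at 8 weeks (-2.46, adjusted p = 0.0513). The 2-week call was also lost without control 1 (limma adjusted p = 0.0817), 2-week array 1 (0.0524), 2-week array 2 (0.0703) or 2-week array 3 (0.0588). The coding probe was at -3.51, -1.83, -6.04 and -4.85 on the control arrays, above background on 2.

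CASQ2 encodes calsequestrin of slow and heart muscle, which binds calcium inside the store. Of its 3 probes 1 was tested, and it was at -0.33, 4.31, -2.38 and -4.73 on the control arrays, the last not above background. After 1 week it was at -5.21, -6.03, -7.10 and -5.06, and after 2 weeks at -5.36, -5.96, -6.40 and -5.62. After 4 weeks it was at -6.29, -6.47, -6.34 and -6.12, and after 8 weeks at -6.53, -6.48, -6.61 and -6.60. None of these 16 was above background and all lie below control 4, so this gene too passed the filter through the control alone. Control was at least 9.40-, 9.20- and 10.9-fold higher than 1, 4 and 8 weeks (limma adjusted p = 0.00794, 0.00654 and 0.00377). Under normexp background correction these changes were -2.64, -3.42 and -3.21 on the log2 scale and not called. At 2 weeks the limma adjusted p was 0.0772, and it was 0.00412 without control 4. The bounds at 1, 4 and 8 weeks without controls 1 and 2 were 1.38, 1.35 and 1.60 (limma adjusted p = 0.0227, 0.0111 and 0.00529).

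CKM encodes the creatine kinase that refills ATP beside the myofibril. Its probe has a partner on the opposite strand with which it is complementary over the 43 bases in capitals; the pair is shown so that the 2 strands can be set side by side.
CKM: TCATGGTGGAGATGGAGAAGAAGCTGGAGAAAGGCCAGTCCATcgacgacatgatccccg
CKM opposite strand: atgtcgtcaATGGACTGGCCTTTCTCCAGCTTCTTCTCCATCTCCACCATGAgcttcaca
The CKM probe was at 1.20, 4.39, -0.76 and -3.20 on the control arrays, all above background. After 1 week it was at -2.44, -2.81, -2.54 and -3.29 and after 2 weeks at -2.67, -3.39, -4.79 and -1.86, with 3 of 4 above background in each. After 4 weeks it was at -5.81, -3.23, -4.62 and -5.89 and after 8 weeks at -4.17, -4.42, -3.44 and -4.36, with 1 of 4 above. The 1- and 2-week arrays overlap the control range through control 4, and the 4- and 8-week arrays lie below it.

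The CKM change was -3.18 ± 1.1 at 1 week and -3.58 ± 1.1 at 2 weeks (SE), neither called (limma adjusted p = 0.0624 and 0.271); without control 4 both were called (-4.38 and -4.78, limma adjusted p = 0.00446 and 0.0204). It was -5.29 ± 1.1 at 4 weeks and -4.50 ± 1.1 at 8 weeks (SE, limma adjusted p = 0.00541 and 0.0121). Without controls 1 and 2 it was -2.91 and -2.12 and neither was called (limma adjusted p = 0.0755 and 0.199). The opposite-strand probe had changes of -0.94, -0.40, 0.33 and -0.62 ± 0.68 (SE) at the 4 times, with limma adjusted p between 0.385 and 0.969.

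**Figure D2:**
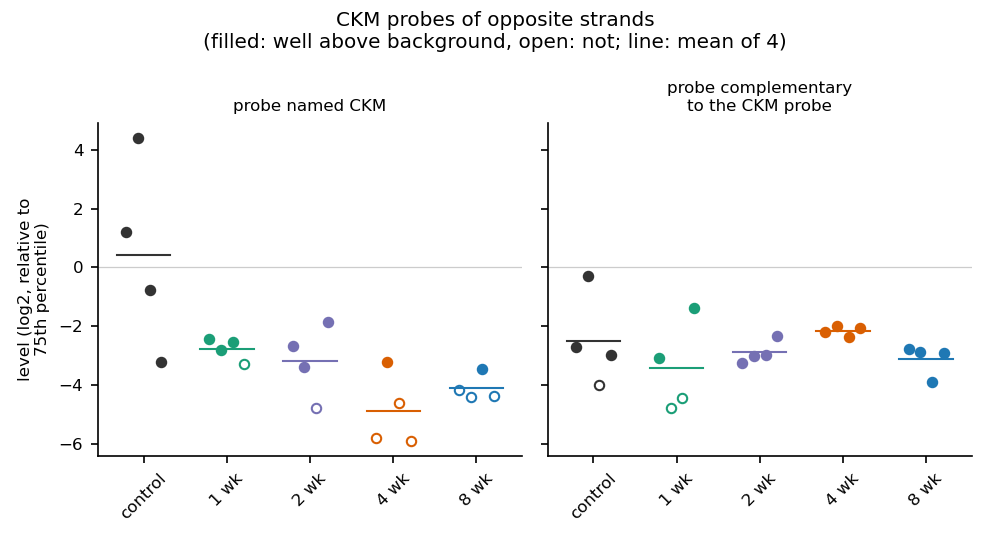
Levels (log2 relative to the array's 75th percentile) of the CKM probe and of the probe complementary to it, with 4 arrays a group, means as lines and open dots for arrays not well above background. Both probes are highest on control 2, where the complementary probe is at -0.28. The group means of the complementary probe after derangement differ from that of control by -0.94 to 0.33.

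ANKRD1 encodes an ankyrin repeat protein that binds titin and is known as a gene induced by stretch and load. Its 5 probes are shifted copies that share the 56 bases in capitals, of which the brightest tested probe is shown.
ANKRD1: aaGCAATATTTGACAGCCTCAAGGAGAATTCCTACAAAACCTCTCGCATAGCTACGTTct
It was at -2.03, 2.37, -3.57 and -2.70 on the control arrays, 3 of them above background. After 1 week it was at -3.37, -3.88, -4.41 and -4.57, 2 of them above background, and after 2 weeks at -6.13, -5.69, -6.13 and -5.34, none above. After 4 weeks it was at -5.65, -5.37, -6.11 and -5.78, and after 8 weeks at -5.48, -4.97, -6.25 and -4.29, none above. Only 1-week array 1 lies above the lowest control, control 3. On control 4 the other copies were at -5.60, -5.51, -5.55 and -3.46, all below the -2.70 of the probe shown. An untested copy was slightly brighter than the probe shown, with group means of -1.49 in control and -3.70 at 2 weeks.

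The ANKRD1 change at 1 week was -2.58 ± 0.85 (SE) and was not called (limma adjusted p = 0.0522); it was called without control 3 (adjusted p = 0.017) or control 4 (0.0367). Control was at least 4.93-, 5.66- and 6.72-fold higher than 2, 4 and 8 weeks (limma adjusted p = 0.0318, 0.00408 and 0.00741), and the bounds were 1.57, 1.80 and 2.14 without controls 1 and 2. Under normexp background correction the changes were -1.48, -2.22 and -2.08 on the log2 scale, smaller than the bounds and not called. The 2-week call was lost without control 1 (limma adjusted p = 0.0759) and without each 2-week array in turn, up to 0.1. The 3 tested probes, which overlap, gave 0, 1, 2 and 2 calls at 1, 2, 4 and 8 weeks.

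**Figure D3:**
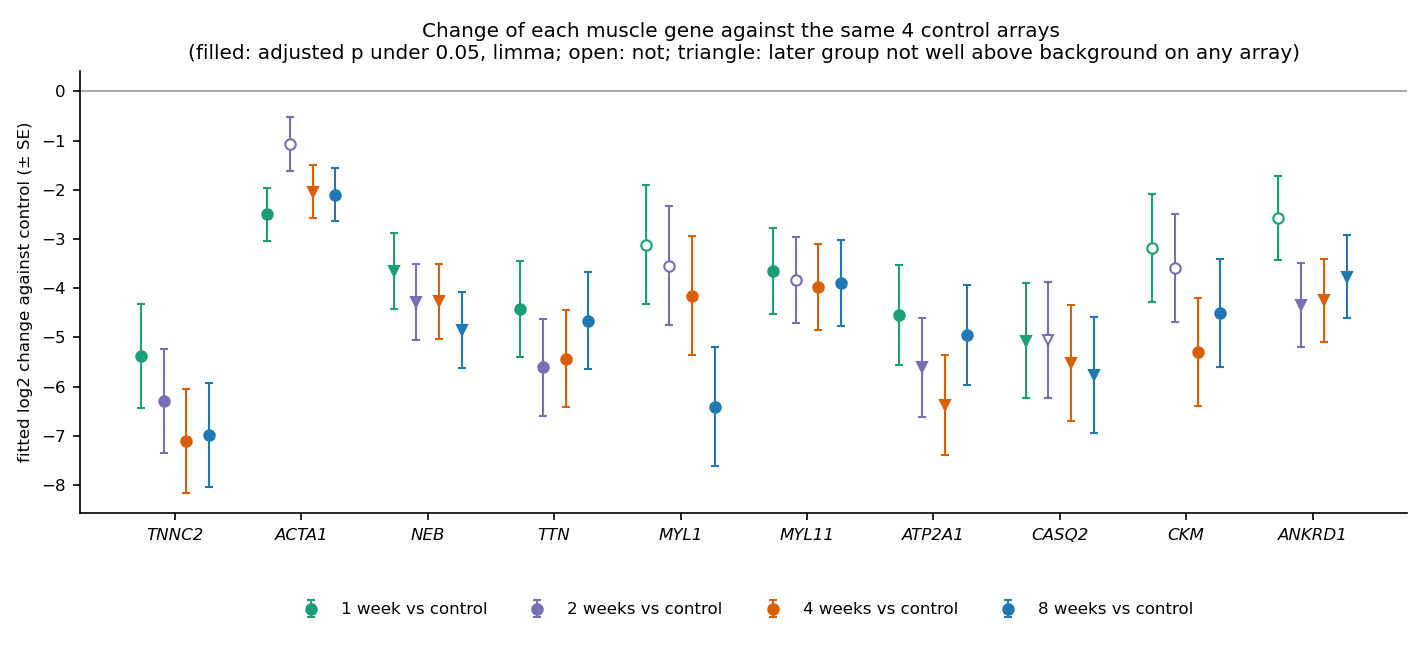
Fitted log2 change of each gene against the same 4 control arrays at 1, 2, 4 and 8 weeks, with its standard error; filled symbols had a limma adjusted p under 0.05, and triangles mark later groups with no array above background, where the fitted size is no measurement. All 40 values lie below 0, from -7.11 for TNNC2 at 4 weeks to -1.07 for ACTA1 at 2 weeks.

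The spread of the 10 genes was far wider in control than later. Their standard deviation over 4 control arrays ran from 1.64 (ACTA1) to 3.84 (CASQ2), with a median of 2.96. The median was 0.62, 0.92, 0.47 and 0.34 at 1, 2, 4 and 8 weeks. Control 2 was brighter than control 4 by 33.6-fold for ANKRD1, 67.9-fold for ATP2A1, 74.4-fold for MYL11, 109-fold for TNNC2, 113-fold for TTN, 192-fold for CKM and 209-fold for MYL1. For ACTA1, NEB and CASQ2, control 4 was not above background. For ANKRD1 the other copies of its probe were lower on control 4 than the probe used here. The 8-week change of MYL1 lay between -7.60 without control 4 and -5.03 without control 2. In the same way it lay between -4.77 and -2.70 for MYL11, -5.67 and -3.39 for TTN, -5.85 and -3.82 for ATP2A1, and -5.70 and -3.18 for CKM, and all of these stayed called. The median level of the 10 genes was 1.68, 4.35, -1.12 and -2.29 on controls 1 to 4, and between -4.73 and -2.71 on the 16 arrays after derangement. The number of the 10 above background was 10, 10, 9 and 7 on the control arrays and 3 to 8 on the others. For 6 genes (TNNC2, MYL11, ATP2A1, CASQ2, TTN and NEB) all 16 arrays after derangement were below the lowest control. The share of all tested probes that do so was not counted. Of these genes, ATP2A1, CASQ2 and NEB passed the filter through the control alone.

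**Figure D4:**
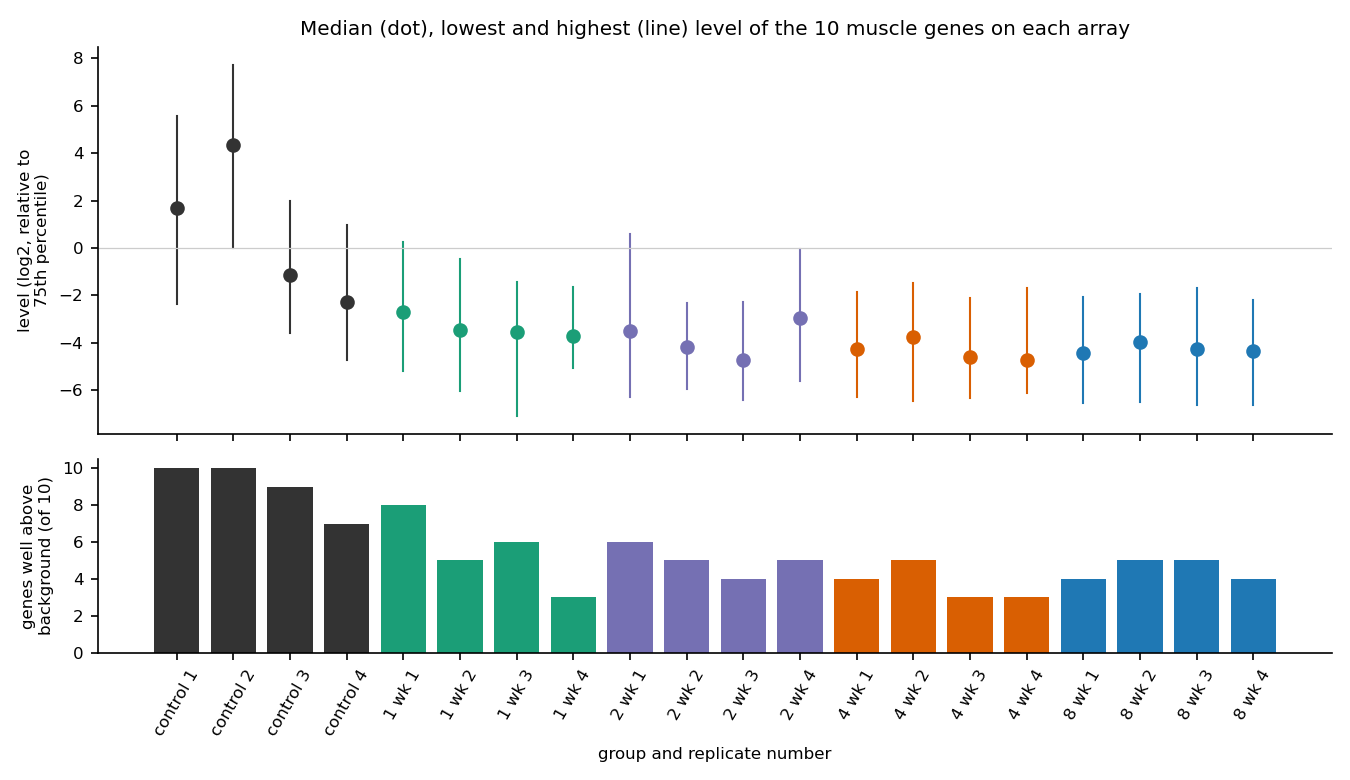
Upper panel: median (dot) and range (line) of the level of the 10 genes on each array, as log2 relative to the array's 75th percentile. Lower panel: number of the 10 genes well above background on that array. Controls 1 and 2 have medians of 1.68 and 4.35 with all 10 genes above background; the 16 arrays after derangement lie between -4.73 and -2.71.

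Between times after derangement none of the 10 genes was called. The comparison of 4 weeks with 1 week called 1.07% of all tested probes, 8 weeks with 1 week 0.0149%, and 8 with 4 weeks 0.558%. At an unadjusted p under 0.05 (limma) the counts of the 10 were 0, 1 and 0, beside 12.3%, 14.6% and 13% of all probes. The groups still separated for some genes. TNNC2 was lower on all 4 arrays at 4 and at 8 weeks than on all 1-week arrays, by -1.74 ± 1.06 and -1.62 ± 1.06 (SE, limma adjusted p = 0.53 and 0.496). MYL1 was lower on all 8-week arrays than at 1 week and at 4 weeks, by -3.30 ± 1.21 and -2.26 ± 1.21 (limma adjusted p = 0.234 and 0.446). TTN was higher on all 8-week than on all 4-week arrays, by 0.77 ± 0.98 (limma adjusted p = 0.783).

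In all, 3 of 10 genes had all 4 arrays at 4 weeks below all 4 at 1 week, where 3.33% of probes did. For 8 weeks against 1 week it was 4 of 10 beside 4.94%, and for 8 against 4 weeks 2 of 10 beside 6.76%. NEB among those 4 and CASQ2 among those 2 were above background on no array of either group compared. ATP2A1 and ANKRD1, among the 3 genes lower at 4 weeks than at 1 week, were above background on no 4-week array. These separations therefore involve values below background and have no measured size. The fit over all 20 arrays carries the control's spread into these comparisons. In a fit of the 12 arrays of that scan day alone, the TNNC2 change from 1 to 4 weeks had an SE of 0.32 and was called (-1.74, limma adjusted p = 0.0354), and none of the other 9 genes was. Without controls 1 and 2, ANKRD1 was called in that comparison (limma adjusted p = 0.0452). As ANKRD1 was above background on no 4-week array, its fitted -1.67 is no measured size. Ordered by group mean, neighbouring groups had overlapping ranges in 30 of 40 pairs. Control did not overlap the next group for 6 genes, among them ATP2A1, CASQ2 and NEB, which passed the filter through the control alone. No share over all tested probes was taken for either count, so neither can be read as particular to these genes.

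Other genes of the muscle fibre came from lists chosen with earlier results of these data known, and are given as counts. Of 18 thick filament and myosin genes, 5 were tested, and 5, 4, 5 and 5 of them were called lower at 1, 2, 4 and 8 weeks. Of the 5, 1 gene at 1 week and 4 at each later time were above background on no array, so most of these changes have no measured size. MYH7, the slow myosin heavy chain, changed by -4.71 ± 0.76 at 1 week (SE, limma adjusted p = 0.000402). At 2, 4 and 8 weeks it was above background on no array and was called lower (limma adjusted p = 0.00156, 5.6e-05 and 7.12e-05). The fast heavy chains MYH1 and MYH2 and the perinatal MYH8 were called lower at all 4 times, with limma adjusted p up to 0.0379. MYH7 and MYH8 were above background on 6 of the 20 arrays, and MYH3, the other gene tested, on 3. The lower calls of these genes are therefore no independent support. Myosin sequences are closely related, and reads of one by another's probe cannot be told apart.

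Of 25 thin filament and Z-disc genes, 4 were tested and 4, 0, 2 and 3 were called lower. They were the tropomyosins TPM1 (-1.29 ± 0.27 at 1 week, limma adjusted p = 0.00419) and TPM2 (-1.82 ± 0.32 at 8 weeks, adjusted p = 0.00104), MYOZ1 of the Z-disc, and TNNI2, the inhibitory troponin of fast fibres (-2.80 ± 0.88 at 1 week, adjusted p = 0.0417). TPM1 and TPM2 are also expressed outside muscle. Of 20 calcium handling genes, 9 were tested and 1, 0, 1 and 1 were called lower, each time SLN, the small peptide that inhibits the calcium pump (-3.96 ± 0.94 at 8 weeks, adjusted p = 0.0104). PLN, a related inhibitor, was called higher at 1 and 4 weeks (limma adjusted p = 0.00643 and 0.0261), with no control array above background. Of 19 energy genes 8 were tested, and SLC2A4, the insulin-regulated glucose transporter, was the 1 called lower at 1, 4 and 8 weeks. SLC2A4 and MYOZ1 were above background on 4 of the 20 arrays, so their lower calls are no independent support. Of 27 stress and regulatory genes 3 were tested, and CAPN3, a muscle protease, was called lower at 1 week (-1.08 ± 0.30, adjusted p = 0.0251).

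Among themselves, the 10 genes had Pearson correlations of 0.69 to 0.97 over the 20 arrays (45 pairs, median 0.905). Over the 16 arrays after derangement the range was -0.52 to 0.71 (median 0.36), and over 18 arrays, without controls 1 and 2, the median was 0.61. These values share arrays and scaling and are given as a description. Of 619 other named genes with a tested probe, the 6 whose level was most like the median of the 10 genes over 20 arrays were MYH2 (r = 0.976), MYH8 (0.959), SLN (0.949), SYPL2 (0.944), SLC2A4 (0.942) and MYH1 (0.933). Over the 16 arrays after derangement they were AKR1B1 (0.807), MYH2 (0.803), PPIA (0.767), DBI (0.740), EEF1G (0.652) and MYH7 (0.598). MYH2 and no other gene stands in both lists of 6.

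Among markers of the labelled tissue, COL2A1, ACAN, CNMD and COL10A1 were above background on every array. SOX9 was above on 0, 4, 0, 2 and 2 of 4 arrays in control and at 1, 2, 4 and 8 weeks. Of 12 cartilage genes 5 were tested (COL2A1, ACAN, SOX9, CNMD and COL10A1); their summed level was 8.65 to 9.66 in control, 9.27 to 11.74 at 1 week, 7.80 to 9.19 at 2 weeks, 9.69 to 10.85 at 4 weeks and 7.32 to 10.01 at 8 weeks. COL2A1, the main cartilage collagen, was at 8.54, 8.57, 9.31 and 9.52 on controls 1 to 4, and CNMD, a cartilage matrix protein, at 0.85, 1.58, 2.56 and 3.57. COL10A1, a collagen of hypertrophic cartilage, was at 4.75, 5.12, 7.43 and 5.92. These 3 were lower on controls 1 and 2, the arrays highest in the 10 muscle genes, than on controls 3 and 4. The other 2 did not follow that order, with ACAN at -1.96, -2.46, -2.70 and -1.95 and SOX9 at -4.75, -4.10, -4.99 and -3.97 on controls 1 to 4. SOX9, the factor that drives cartilage genes, was called higher at 1 week (limma adjusted p = 0.0194) with no control array above background, and none of the 5 was called lower.

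The fast-fibre list, of which 7 of 12 genes were tested and 4 are members, had a summed level of 2.16 to 8.91 in control and -0.59 to 1.79 later. Of 8 slow-fibre genes 3 were tested, CASQ2 among them, with sums of 4.39 to 5.80 in control and 4.04 to 4.67 later. ATP2A2, the calcium pump of slow and heart muscle and of many other cells, makes up most of that sum after derangement; its group means were 4.18 to 4.51 beside 4.45 in control, and it was not called at any time. The other 2, MYH7 and CASQ2, were called lower as given above. Of the heart list, NPPA, which encodes a natriuretic peptide, was called higher at 1, 4 and 8 weeks (limma adjusted p = 6.87e-05, 0.000285 and 0.000366). No control array was above background, so no size is given. At 2 weeks, the group scanned on the same day as control, it was not called (limma adjusted p = 0.999). It was above background on 2, 0, 1 and 3 arrays at 1, 2, 4 and 8 weeks. Scan day and derangement cannot be told apart for the groups in which it was called. In the same list, MYH6 was called lower at 1 and 8 weeks (-2.71 ± 0.74 and -2.57 ± 0.74, limma adjusted p = 0.0217 and 0.03). The 2 tested smooth-muscle genes, ACTA2 and TAGLN, had sums of 0.84 to 2.05 in control and -1.14 to 2.13 later, and TAGLN was called lower at 4 weeks (-1.65 ± 0.45, limma adjusted p = 0.0314). The 6 tested genes of fibrous tissue and tendon had sums of 10.47 to 10.63 in control and 10.11 to 10.80 later, with LUM called lower at 1, 4 and 8 weeks. Of 5 endothelial, 8 red-cell and 5 nerve markers, 2, 2 and 1 were tested and none was called at any time, and of 5 fat markers none was tested. Of 7 markers of neutrophils and macrophages 3 were tested, and CD14 and MSR1 were called lower at 4 weeks (limma adjusted p = 0.0133 and 0.0354). How far other tissue in the samples takes part in the muscle differences was not tested.

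**Figure D5:**
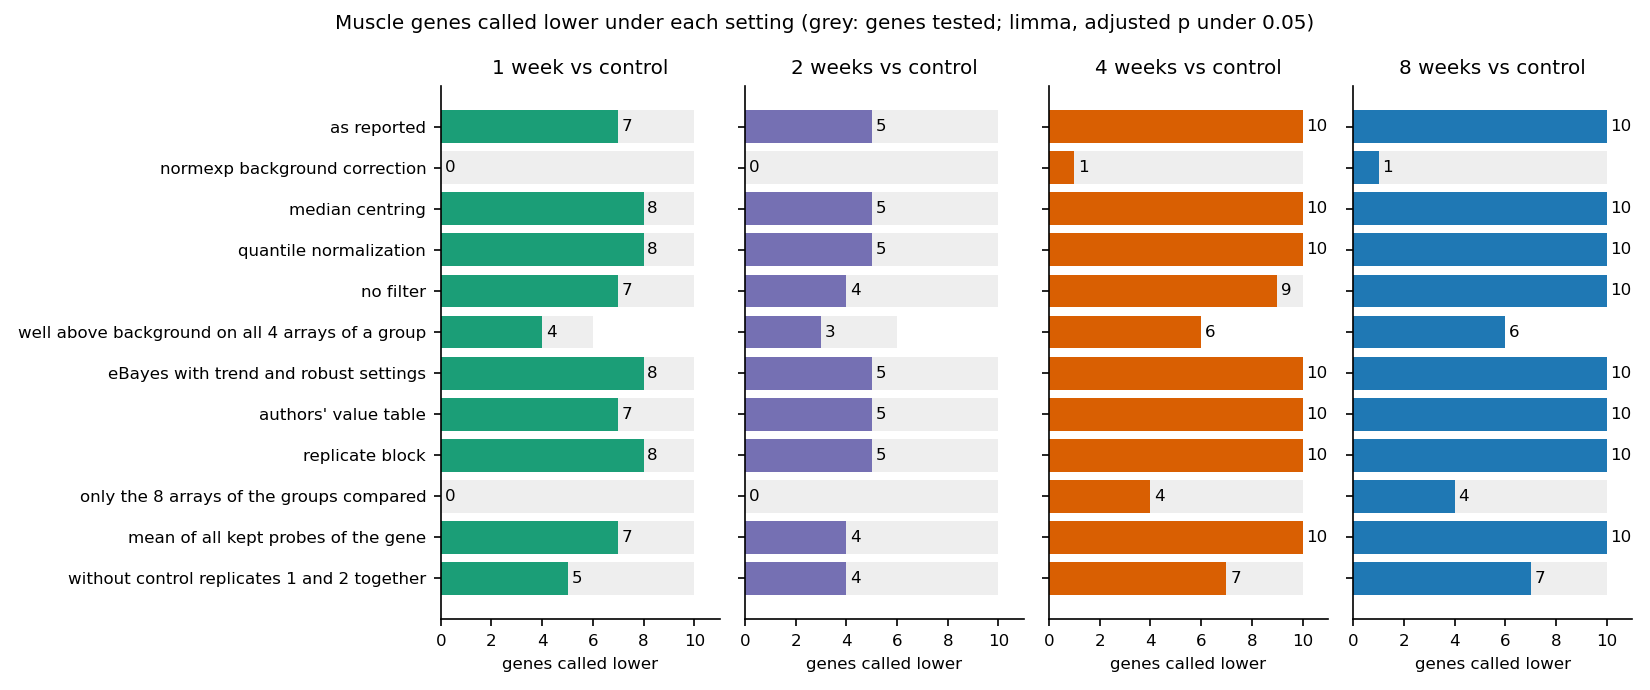
Number of the 10 genes called lower than control (limma, adjusted p under 0.05) at each time, as reported and under 11 other settings; grey bars are the genes that could be tested. Counts stay near 7, 5, 10 and 10 except with normexp correction (0, 0, 1 and 1), with only the 8 arrays of a comparison (0, 0, 4 and 4), without controls 1 and 2, and where a stricter filter left 6 genes.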

How the data were processed

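RNA of the condylar cartilage of 20 rabbits was hybridised to 1-colour (Cy3) Agilent arrays, 5 groups of 4, grouped by the labels. The deposited scanner files hold probe intensity, made with Agilent Feature Extraction 10.7.1.1 per the file headers and the submitters' processing notes: gProcessedSignal is background-subtracted intensity, with small values replaced by a surrogate (7957 to 14027 spots an array). A log2 value here is log2 of that deposited intensity minus the array's 75th percentile, with control spots and outlier spots (5 to 62 an array) left out and spots of one probe averaged. In R 4.3.3, limma 3.58.1 fitted 5 group means (lmFit, eBayes, two-sided), with p-values adjusted (Benjamini-Hochberg) over the 26905 probes well above background on at least 3 arrays of a group. A group with no array above background has only a bound: the bright group's mean over the dim group's mean of, per array, the lowest signal well above background or the probe's own if higher.

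Members and lists were chosen with earlier results of these data known. All 10 genes are reported; from each list, up to 4 genes called against control, by lowest adjusted p; and the 6 other genes most correlated with the members' median, over 20 and over 16 arrays. The fit was tested on simulated data. RefSeq names (mOryCun1.1) covered 1866 of 2421 named probes. No genome was used here, so no positions are given. The sequence of the ACTA1 probe, and comparisons of that sequence with other probes, are not reported here.

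Alternatives were normexp correction (offset 50), median and quantile scaling, other filters, eBayes settings, the authors' deposited value table (an intensity scale with array medians of 28.3 to 90.2, in which 16 columns equalled their own array and each 8-week column another 8-week array), a replicate block, fewer arrays and 1 scan day. The number of arrays limits precision.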

Additional observations from a re-analysis of the deposited data

Results flagged for a closer look

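For NEB at 1 week, array 4 was at -4.63, apart from the other 3 arrays at -5.10, -5.03 and -5.08. The gap is 0.843 of the group's range, above Dixon's 95% limit for 4 values. None of the 4 arrays was well above background for this probe. As processed signal, array 4 was the lowest of the 4, at 7.05 units beside 13.3, 7.44 and 13.9. Its 75th percentile, 174 units, was also the lowest of the 4, so it stands apart on the high side only after scaling. Of 50 groups of 4 tested this group was the 1 that passed the limit, and chance alone passes about 1 in 20.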

How the results depend on the processing

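As reported, 7, 5, 10 and 10 of the 10 genes were called lower than control at 1, 2, 4 and 8 weeks. With normexp background correction 0, 0, 1 and 1 were called. With only the 8 arrays of a comparison, which leaves 6 residual degrees of freedom in place of 15, 0, 0, 4 and 4 were called. The SE rose as well, for MYL11 at 1 week from 0.87 to 1.24, as the other later groups no longer enter the shared spread. With a filter asking for all 4 arrays of a group, 6 genes could be tested and 4, 3, 6 and 6 were called. Within 1 scan day, 0 were called at 2 weeks and 1 between 4 weeks and 1 week; no day holds control with 1, 4 or 8 weeks, so day and group cannot be told apart there. Without controls 1 and 2 together (chosen after seeing the data) 5, 4, 7 and 7 were called, and 1 between 4 weeks and 1 week. Leaving out 1 array at a time gave 7 to 10 calls at 1 week, 0 to 8 at 2 weeks (0 without control 1 or 2-week array 2), 8 to 10 at 4 weeks, 10 to 10 at 8 weeks and 0 to 0 in each comparison of times. The cause of these differences was not tested beyond the smaller number of arrays or genes, and the larger SE, named.

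Median scaling, quantile scaling, eBayes with trend and robust settings, no filter, the mean of a gene's probes and the value table gave between 7 and 8, 4 and 5, 9 and 10, and 10 and 10 calls. Of the changes of single genes under all settings, 2066 kept their side of the threshold, 102 lost a call, 14 gained one and none that was called turned its sign. The 2066 include the 11 of 1198 uncalled values that turned sign. Median scaling moved the median change of all probes to -0.12, 0.05, -0.10 and -0.12 at the 4 times.

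The replicate numbers of the labels do not pair the arrays: same-numbered arrays of different groups had deviations correlated by a median of 0.008 (-0.331 to 0.386 over 40 pairs), and 4 of 20 arrays correlated best with their own number. A fit with the replicate number as a block called 8, 5, 10 and 10 genes lower, ANKRD1 at 1 week being the 1 added (limma adjusted p = 0.0397), and none between times.

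The probes that stand for NEB and CASQ2 were above background on no array after derangement, so their sizes there are bounds.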
